A study of Mus musculus with 20 samples.

Results

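Fatty acid oxidation was followed through 42 genes of its mitochondrial and peroxisomal branches, in RNA sequencing of 20 mouse libraries. The genes were taken by symbol from a list drawn up with earlier results of these data known, and no measured value entered the rule. All 42 were found among the 25700 gene identifiers of the count tables and passed the filter on low counts. The list holds 23 genes whose products act in mitochondria, 12 whose products act in peroxisomes and 7 whose products serve both or act before the paths divide. The study asked what alkali therapy, given as bicarbonate, does in crystal nephropathy, a kidney disease in which mineral crystals lodge in the tubules. There were 4 groups of 5 libraries: controls without treatment, controls on alkali therapy, mice labelled oxalate without treatment, and oxalate mice on alkali therapy. Both groups on alkali are also titled late, a word left without explanation, so alkali and whatever late stands for cannot be told apart. Below, lowered, raised or changed by alkali means a difference between the groups so labelled. The labels give no strain, sex, age, dose, duration or diet, and they name no tissue. Nothing in them says that the libraries come from separate animals, so a p-value here weighs a difference against the spread of libraries, which may be technical.

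As background, fatty acids are joined to coenzyme A, carried into mitochondria as carnitine esters, and shortened by repeated rounds of dehydrogenation, hydration, a further dehydrogenation and thiolysis, with the electrons passed to the respiratory chain. Peroxisomes run a related path, started by acyl-CoA oxidases, for very long and branched chains and for bile acid precursors, and hand the shortened chains on. In the kidney the proximal tubule draws most of its energy from this oxidation and is rich in both organelles.

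In untreated oxalate mice, 30 of the 42 genes fell and 2 rose relative to untreated controls, against 23.1% of all 15430 tested genes that fell and 26.4% that rose (edgeR, adjusted p under 0.05). The log2 fold changes of the 42 genes ran from -1.22 to 0.41 with a median of -0.47, beside a median of 0.00 over all genes, and 39 lay below 0. In 25 genes every untreated oxalate library lay below every untreated control, and in 1 gene, Acsl4, every one lay above; over all genes these shares were 15.4% and 18.5%. The 42 genes together held 2.15% ± 0.0955 (SD, n = 5) of all counts in untreated controls and 1.46% ± 0.256 in untreated oxalate mice. Where libraries were scaled by total counts alone, the median of all genes moved up by 0.30, and 16 of the 42 genes fell and 2 rose; their median was then -0.18, beside 0.30 over all genes.

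**Figure D1:**
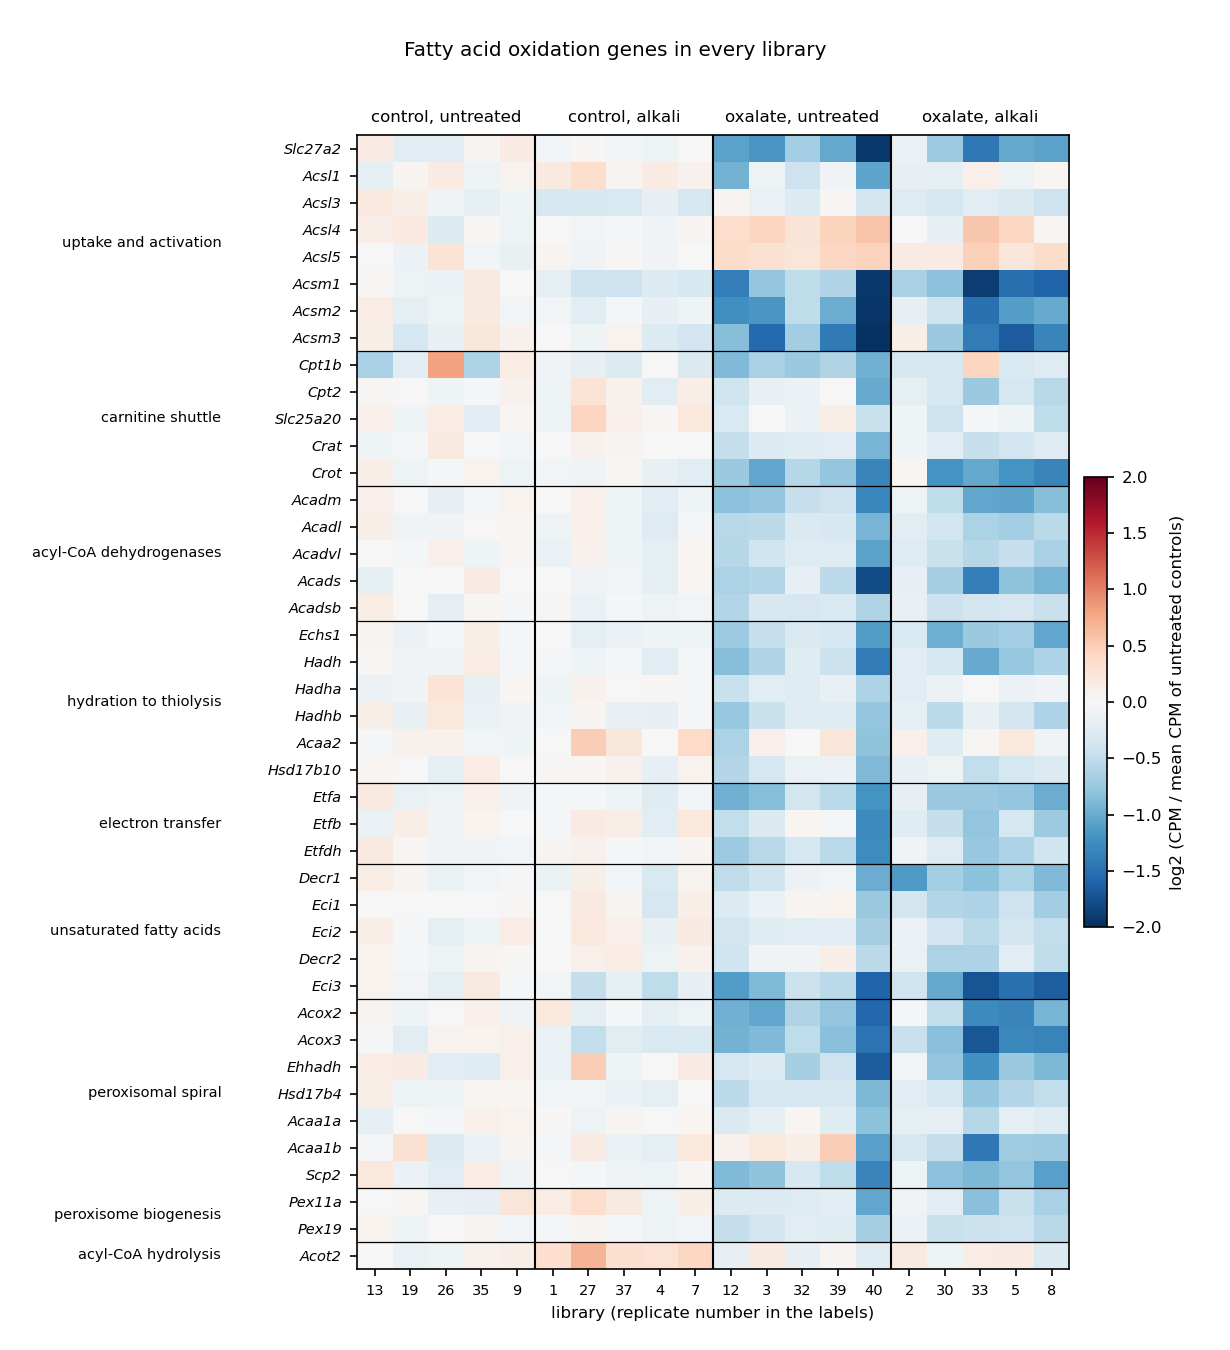
Level of each of the 42 genes in each of the 20 libraries, as the log2 ratio to the mean of the 5 untreated controls. Columns are libraries by group and rows are genes by role; blue is lower and red is higher. Library 40 of the untreated oxalate group is the lowest of its group in 40 of the 42 genes.

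On alkali, the oxalate mice again differed from controls on alkali: 33 of the 42 genes fell and 1 rose, against 17.1% and 23.4% of all genes. The median log2 fold change was -0.46, beside 0.02 over all genes. In 16 genes the groups did not overlap with oxalate lower, and in 1 gene, Acsl5, with oxalate higher, against 5.51% and 10.8% of all genes. Of the 42 genes, 26 fell with and without alkali, 4 fell without alkali alone (Acsl1, Cpt1b, Hadha and Hsd17b10) and 7 fell on alkali alone (Cpt2, Slc25a20, Etfb, Eci1, Decr2, Acaa1b and Acot2). Acsl5 rose in both settings, Acsl4 rose without alkali, and Acsl3, Acaa2 and Acaa1a were called in neither. These calls do not show that any gene responded differently with alkali, because the test of that difference called none of the 42, as given below.

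Alkali against no treatment gave 0 lower and 0 higher calls among the 42 genes in oxalate mice, against 2.33% and 1.76% of all genes (edgeR). At an unadjusted p under 0.05 there were 4 lower and 3 higher. DESeq2 called 2 lower, Decr1 and Acaa1b, and limma-voom called 0. The median log2 fold change was 0.01, and the 95% interval lay within 1 log2 unit on either side of 0 for 40 of the 42 genes, the exceptions being Cpt1b and Acaa1b, and within 0.5 for 25.

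The libraries held between 25547840 and 39550689 counts, and no 2 libraries of a group agreed within counting noise. Markers of proximal tubule, thick ascending limb and other nephron segments were abundant, as in kidney. All 12 proximal tubule markers fell in untreated oxalate mice (median log2 fold change -0.77), and 8 of 12 fell on alkali (median -0.70). Their summed level ran from 18326 to 20386 CPM (counts scaled to library size by TMM) in untreated controls and from 5390 to 14281 in untreated oxalate mice. On alkali it ran from 18589 to 20114 in controls and from 7821 to 17649 in oxalate mice. All 9 macrophage and monocyte markers rose without alkali, from a summed 132.7 to 181.4 CPM in untreated controls to 741.3 to 2895 in untreated oxalate mice, as did all 4 T cell markers, all 5 fibroblast markers, all 5 tubular injury genes and all 4 podocyte markers. On alkali, 8 of the 9 macrophage and monocyte markers rose, from a summed 129.1 to 194.1 CPM in controls to 289 to 929.3 in oxalate mice, as did all markers of the other 4 lists and all 4 endothelial markers, of which 1 rose without alkali. Alkali in oxalate mice lowered 4 of the 5 tubular injury genes, whose summed level ran from 174.9 to 468.6 CPM without it and from 58.86 to 175.8 with it, and 2 of the 9 macrophage and monocyte markers. It raised 2 of the 3 distal convoluted tubule markers and 1 of the 4 endothelial markers, and 0 of the 12 proximal tubule markers were called. The shares of all genes in oxalate mice against controls were 23.1% lower and 26.4% higher without alkali, and 17.1% and 23.4% on alkali. For alkali in oxalate mice they were 2.33% lower and 1.76% higher. With bulk RNA, fewer cells of a type and less RNA per cell cannot be told apart, and the part of these cell types in the changes described here was not tested.

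A few libraries stood apart. The median of the 42 genes against untreated controls was -1.02 in library 40 of the untreated oxalate group and between -0.575 and -0.248 in the other 4. Among oxalate mice on alkali it was -0.16 in library 2, which was highest of its group in 30 of the 42 genes, and between -0.74 and -0.43 in the other 4. For the proximal tubule markers the same 2 libraries stood at -1.81 and -0.08. In the controls on alkali, library 4 was lowest in 28 of the 42 genes, at a median of -0.15. Adipoq, which adipocytes secrete, exceeded 1 CPM in 6 libraries, which were untreated control libraries 26 and 9, libraries 1 and 4 of the controls on alkali, library 32 of the untreated oxalate mice and library 33 of the oxalate mice on alkali. The 6 adipocyte markers, of which 5 could be tested and 0 were called, summed to 0.254 to 483.9 CPM in untreated controls, 0.3471 to 41.56 in controls on alkali, 0.501 to 29.29 in untreated oxalate mice and 0.2411 to 255.7 in oxalate mice on alkali. Skeletal muscle and adrenal markers summed to at most 1.52 and 2.07 CPM in any library. Without those 6 libraries, 29 of the 42 genes fell and 1 rose in the comparison without alkali, and 17 fell and 0 rose on alkali. The medians were then -0.55 and -0.53, with 40 of the 42 genes below 0 in each. Over all genes the number that fell on alkali went from 2633 to 956. Cpt1b was then called higher with alkali in oxalate mice.

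**Figure D2:**
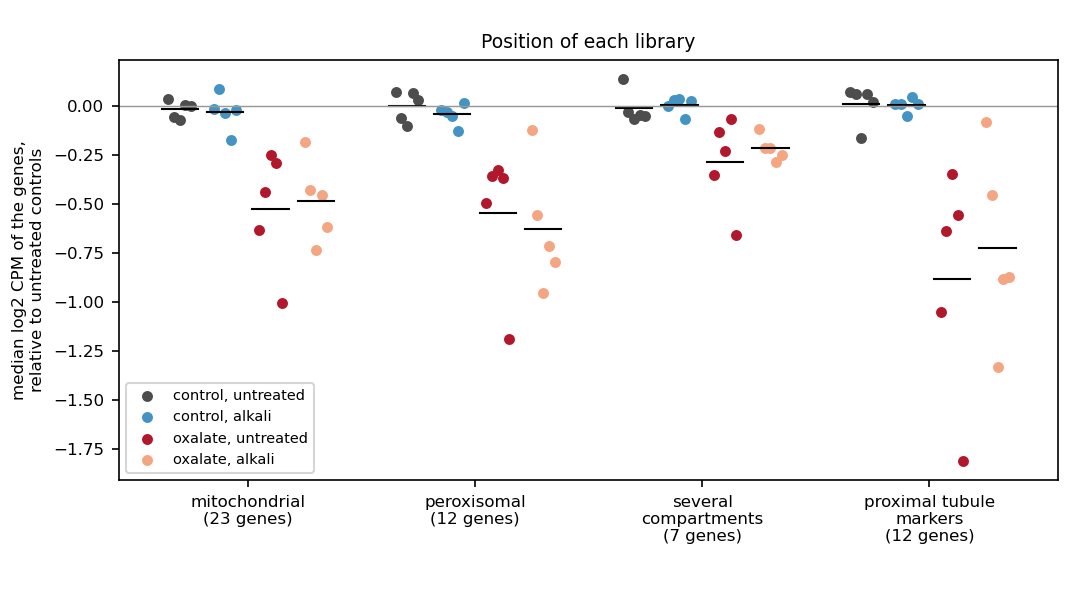
Median log2 ratio to untreated controls over the 23 mitochondrial, 12 peroxisomal and 7 shared genes and over 12 proximal tubule markers, 1 point per library and a bar for the mean of 5. Over the mitochondrial genes the control libraries lie between -0.17 and 0.09 and the oxalate libraries between -1.01 and -0.18.

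By compartment, 17 of the 23 mitochondrial genes fell without alkali (median log2 fold change -0.48) and 9 of the 12 peroxisomal genes fell (median -0.53). Of the 7 shared genes, 4 fell and 2 rose (median -0.335). On alkali the counts were 19 of 23, 11 of 12, and 3 lower with 1 higher of 7. Beside these counts and those by step below, 23.1% of all genes fell and 26.4% rose without alkali. On alkali, 17.1% of all genes fell and 23.4% rose.

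The steps were then followed in the order of the path, beginning with uptake and activation, where 5 of 8 genes fell and 2 rose without alkali and 4 fell and 1 rose on alkali. Values are scaled CPM, in the order of library numbers 9, 13, 19, 26 and 35 for untreated controls, 3, 12, 32, 39 and 40 for untreated oxalate mice, 1, 4, 7, 27 and 37 for controls on alkali, and 2, 5, 8, 30 and 33 for oxalate mice on alkali. Gene positions are in GRCm38. Slc27a2 (chr2:126552407-126588243, plus strand) encodes a transporter of the endoplasmic reticulum and peroxisome that activates very long chain fatty acids. Slc27a2 stood at 5720, 5708, 4324, 4357 and 5296 CPM in untreated controls and 2269, 2416, 3177, 2498 and 1335 CPM in untreated oxalate mice. With alkali, Slc27a2 read 4902, 4734, 5132, 5141 and 4892 CPM in controls and 4619, 2502, 2427, 3071 and 1880 CPM in oxalate mice. All 5 untreated oxalate libraries lay below all untreated controls, and the same held on alkali, where library 2 came close to the controls. Its level in untreated oxalate mice was 0.46 times that of untreated controls (log2 fold change -1.12 ± 0.22 SE, edgeR adjusted p = 0.000349), and on alkali the log2 fold change was -0.77 (edgeR adjusted p = 0.00946).

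Acsm2 (chr7:119554340-119600690, plus strand) encodes a mitochondrial medium-chain acyl-CoA synthetase of the proximal tubule. Acsm2 was measured at 6452, 7406, 5848, 6223 and 7563 CPM in untreated controls and 2997, 2869, 4690, 3375 and 1741 CPM in untreated oxalate mice. On alkali Acsm2 came to 6452, 5947, 6312, 5754 and 6597 CPM in controls and 5986, 3105, 3345, 5002 and 2383 CPM in oxalate mice. The untreated groups did not overlap, while on alkali the oxalate library 2 reached the control range. Without alkali the log2 fold change was -1.10 ± 0.23 (edgeR adjusted p = 0.000823), and on alkali it was -0.65 ± 0.23 (edgeR adjusted p = 0.0323). The call on alkali was lost without any 1 of libraries 1, 5, 7, 8, 33 and 37 (log2 -0.64 to -0.51, edgeR adjusted p = 0.057 to 0.0904). Its neighbours Acsm1 and Acsm3 on chromosome 7 fell too, Acsm3 by the largest log2 fold change of the 42 genes, -1.22 ± 0.28 (edgeR adjusted p = 0.00154). On alkali the log2 fold change of Acsm3 was -0.73 ± 0.28 (edgeR adjusted p = 0.045). That call was lost without any 1 of libraries 1, 4, 5, 7, 8, 9, 13, 26, 27, 30, 33, 35, 37 and 39 (log2 -0.79 to -0.58, edgeR adjusted p = 0.0501 to 0.115). Of these, libraries 9, 13, 26, 35 and 39 are in neither group compared, and without any 1 of them the log2 fold change stayed at -0.73. Acsm3 overlaps exons of Eri2 on the other strand, and the strand setting of the counting is not given in the sources used here, so its count is uncertain. Acsl1, the main long-chain acyl-CoA synthetase of oxidative tissues, fell without alkali (-0.46 ± 0.15, edgeR adjusted p = 0.0179), a call lost without library 12 (log2 -0.36, edgeR adjusted p = 0.0577). The call was also lost with only the 2 groups compared (edgeR adjusted p = 0.065) and without the 6 libraries with Adipoq above 1 CPM (edgeR adjusted p = 0.0906). With total-count scaling Acsl1 gave -0.185 (edgeR adjusted p = 0.301). Acsl3, a synthetase of lipid droplets and the endoplasmic reticulum, gave -0.13 ± 0.09 and was not called.

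The 2 genes that rose are both long-chain acyl-CoA synthetases. Acsl4 (chrX:142317993-142390535, minus strand) prefers arachidonic acid and feeds it into membrane phospholipids. Acsl4 stood at 42.05, 49.4, 51.7, 37.3 and 45.8 CPM in untreated controls and 60.9, 57.5, 53.95, 61.4 and 67.5 CPM in untreated oxalate mice. With alkali, Acsl4 read 45.2, 43.1, 47.05, 43.8 and 44.7 CPM in controls and 45.7, 60.5, 46.5, 40.4 and 65.6 CPM in oxalate mice. Every untreated oxalate library lay above every untreated control, and on alkali the groups overlapped, with oxalate libraries 5 and 33 high and the other 3 among or below the controls. The log2 fold change was 0.41 ± 0.11 without alkali (edgeR adjusted p = 0.00541) and 0.21 ± 0.11 on alkali (edgeR adjusted p = 0.144). On alkali it was called once library 30 (log2 0.28, edgeR adjusted p = 0.0465) was left out. Without the 6 libraries with Adipoq above 1 CPM, the log2 fold change of Acsl4 without alkali was 0.29 and no longer called (edgeR adjusted p = 0.0521). Acsl5 (chr19:55251938-55297720, plus strand), found on mitochondria and the endoplasmic reticulum, was measured at 88.7, 98.7, 90.5, 119 and 94.6 CPM in untreated controls and 121, 126, 116, 131 and 136 CPM in untreated oxalate mice. On alkali Acsl5 came to 103, 93.4, 98.9, 93.5 and 99.98 CPM in controls and 111, 116, 126, 110.1 and 137 CPM in oxalate mice. The untreated groups overlapped only through control library 26, at 119 CPM, and on alkali they did not overlap. Acsl5 rose by 0.36 ± 0.08 log2 without alkali (edgeR adjusted p = 0.00165) and by 0.30 ± 0.08 on alkali (edgeR adjusted p = 0.0103), where it gave 0.21 without the same 6 libraries (edgeR adjusted p = 0.0816). Its exons overlap those of Zdhhc6 on the other strand. The macrophage, T cell and fibroblast markers rose in the same libraries, and their part in these 2 increases was not tested.

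**Figure D3:**
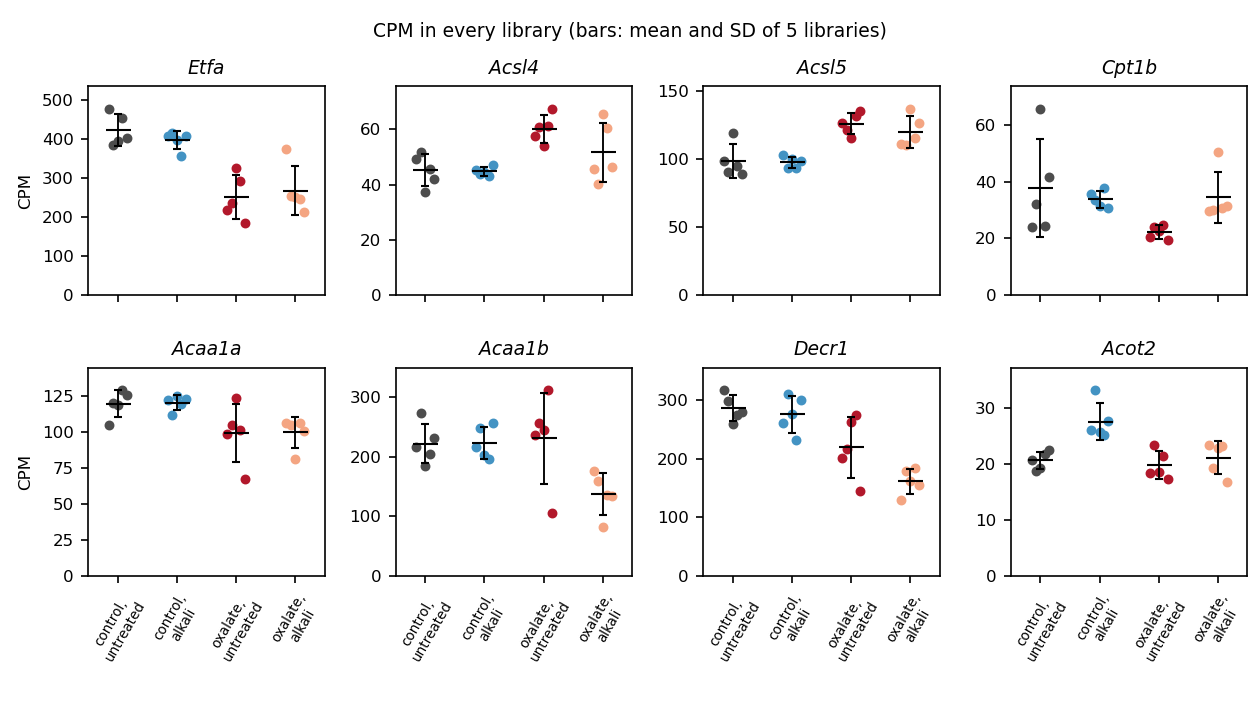
Scaled CPM of 8 genes in the 20 libraries, 1 panel per gene with an axis from 0, 1 point per library and bars for the mean and SD of 5. Acsl4 is higher in all 5 untreated oxalate libraries than in untreated controls, and Acaa1b is lower in all 5 oxalate libraries on alkali than in controls on alkali.

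In the carnitine shuttle, which moves acyl groups across membranes, 3 of 5 genes fell without alkali and 4 of 5 on alkali. Crot (chr5:8966033-8997324, minus strand) is the peroxisomal carnitine octanoyltransferase that exports shortened chains. Crot stood at 653, 767, 649.8, 689 and 733 CPM in untreated controls and 342, 419, 470.3, 409.7 and 279 CPM in untreated oxalate mice. With alkali, Crot read 671, 628, 599, 668 and 712 CPM in controls and 721, 306, 280.4, 306 and 345 CPM in oxalate mice. The untreated groups did not overlap, and on alkali 4 oxalate libraries lay far below the controls while library 2 exceeded all 5 of them. Crot fell by 0.86 ± 0.20 log2 without alkali (edgeR adjusted p = 0.00173) and by 0.74 ± 0.20 on alkali (edgeR adjusted p = 0.00868).

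Crat (chr2:30400471-30415813, minus strand), the carnitine acetyltransferase of mitochondria and peroxisomes, was measured at 181, 178, 183, 212 and 186 CPM in untreated controls and 156, 134, 159.6, 162 and 98.3 CPM in untreated oxalate mice. On alkali Crat came to 187, 186, 189, 200.2 and 194 CPM in controls and 176, 144, 157, 162 and 136 CPM in oxalate mice. In neither setting did the groups overlap, and oxalate library 40 was the lowest of all. Crat changed by -0.40 ± 0.11 without alkali (edgeR adjusted p = 0.00488) and -0.30 ± 0.11 on alkali (edgeR adjusted p = 0.0335). The second call was lost without any 1 of libraries 1, 5, 7, 8, 27, 33 and 37 (log2 -0.31 to -0.26, edgeR adjusted p = 0.0523 to 0.0902). Cpt2, the inner membrane transferase, and Slc25a20, the carnitine carrier, fell on alkali (-0.47 and -0.36) and gave -0.29 and -0.14 without it, below the threshold of the test. Slc25a20 lost its call on alkali without any 1 of libraries 7, 8, 27 and 30 (log2 -0.34 to -0.28, edgeR adjusted p = 0.0506 to 0.079). Cpt2 lost its call on alkali without library 33 (log2 -0.40, edgeR adjusted p = 0.05), and without alkali it was called once either of libraries 32 and 39 (log2 -0.39 to -0.38, edgeR adjusted p = 0.0428 to 0.0438) was left out.

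Cpt1b (chr15:89416405-89425863, minus strand), the muscle and brown fat form of the outer membrane transferase, is given in full because of its spread, after its values were seen. Cpt1b stood at 41.7, 23.96, 32.3, 65.9 and 24.4 CPM in untreated controls and 24.1, 20.5, 22.5, 24.9 and 19.3 CPM in untreated oxalate mice. With alkali, Cpt1b read 35.7, 37.7, 30.7, 33.6 and 31.3 CPM in controls and 29.6, 30.6, 31.4, 30.02 and 50.7 CPM in oxalate mice. The highest 2 libraries were untreated control 26 and library 33 of the oxalate mice on alkali. Those were also the 2 highest in Ucp1, the uncoupling protein of brown fat, at 297.5 and 127.2 CPM; the third in Ucp1 was untreated oxalate library 32, at 16.5 CPM. Cpt1b fell in untreated oxalate mice by 0.76 ± 0.21 log2 (edgeR adjusted p = 0.00646), by 0.46 without library 26 (edgeR adjusted p = 0.0273) and by 0.33 without the 6 libraries with Adipoq above 1 CPM (edgeR adjusted p = 0.0281). All 5 oxalate libraries on alkali lay above all 5 untreated oxalate libraries. The share of all genes that separate so in this comparison is not reported here. The log2 difference between these 2 groups was 0.63 ± 0.21 (edgeR adjusted p = 0.0977). That difference was 0.45 without library 33 (edgeR adjusted p = 0.182) and 0.47 without the 6 libraries (edgeR adjusted p = 0.0216), and 0.63 with an edgeR adjusted p of 0.0319 without control library 26.

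The acyl-CoA dehydrogenases, which take the first 2 hydrogens from chains of different length, all fell, 5 of 5 genes in both settings, with medians of -0.50 without alkali and -0.42 on alkali. Acadsb (chr7:131410601-131448944, plus strand) acts on short branched chains. Acadsb stood at 151, 171, 153, 134 and 158 CPM in untreated controls and 123, 102, 122, 125 and 101 CPM in untreated oxalate mice. With alkali, Acadsb read 156, 142, 148, 139 and 149 CPM in controls and 139, 121, 112, 114 and 119 CPM in oxalate mice. The groups did not overlap in either setting. It fell by 0.42 ± 0.08 log2 without alkali (edgeR adjusted p = 0.000476) and by 0.28 ± 0.08 on alkali (edgeR adjusted p = 0.0133). Acadl (chr1:66830839-66863277, minus strand), the long-chain enzyme, was measured at 436, 461, 398, 406 and 425 CPM in untreated controls and 296, 290.4, 349, 341 and 224 CPM in untreated oxalate mice. On alkali Acadl came to 396, 354, 418, 455 and 395 CPM in controls and 365, 264, 294, 326 and 274 CPM in oxalate mice. The untreated groups were apart, and on alkali library 2 of the oxalate mice passed the lowest control, library 4. Acadl changed by -0.50 ± 0.12 without alkali (edgeR adjusted p = 0.00152) and -0.41 ± 0.12 on alkali (edgeR adjusted p = 0.0111). Acadm, Acadvl and Acads, the medium, very long and short chain enzymes, changed by -0.72, -0.48 and -0.65 without alkali and by -0.61, -0.42 and -0.68 on alkali. The call of Acads on alkali was lost without library 33 (log2 -0.56, edgeR adjusted p = 0.0546). With total-count scaling, Acadvl, Acads and Acadsb lost the call without alkali (log2 -0.38 to -0.12, edgeR adjusted p = 0.0615 to 0.126). Acadvl and Acadsb then lost it on alkali too. Without the 6 libraries with Adipoq above 1 CPM, Acadm, Acads and Acadsb lost the call on alkali (log2 -0.61 to -0.29, edgeR adjusted p = 0.0654 to 0.0785). Acadvl shares exon bases with Dvl2 on the other strand.

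**Figure D4:**
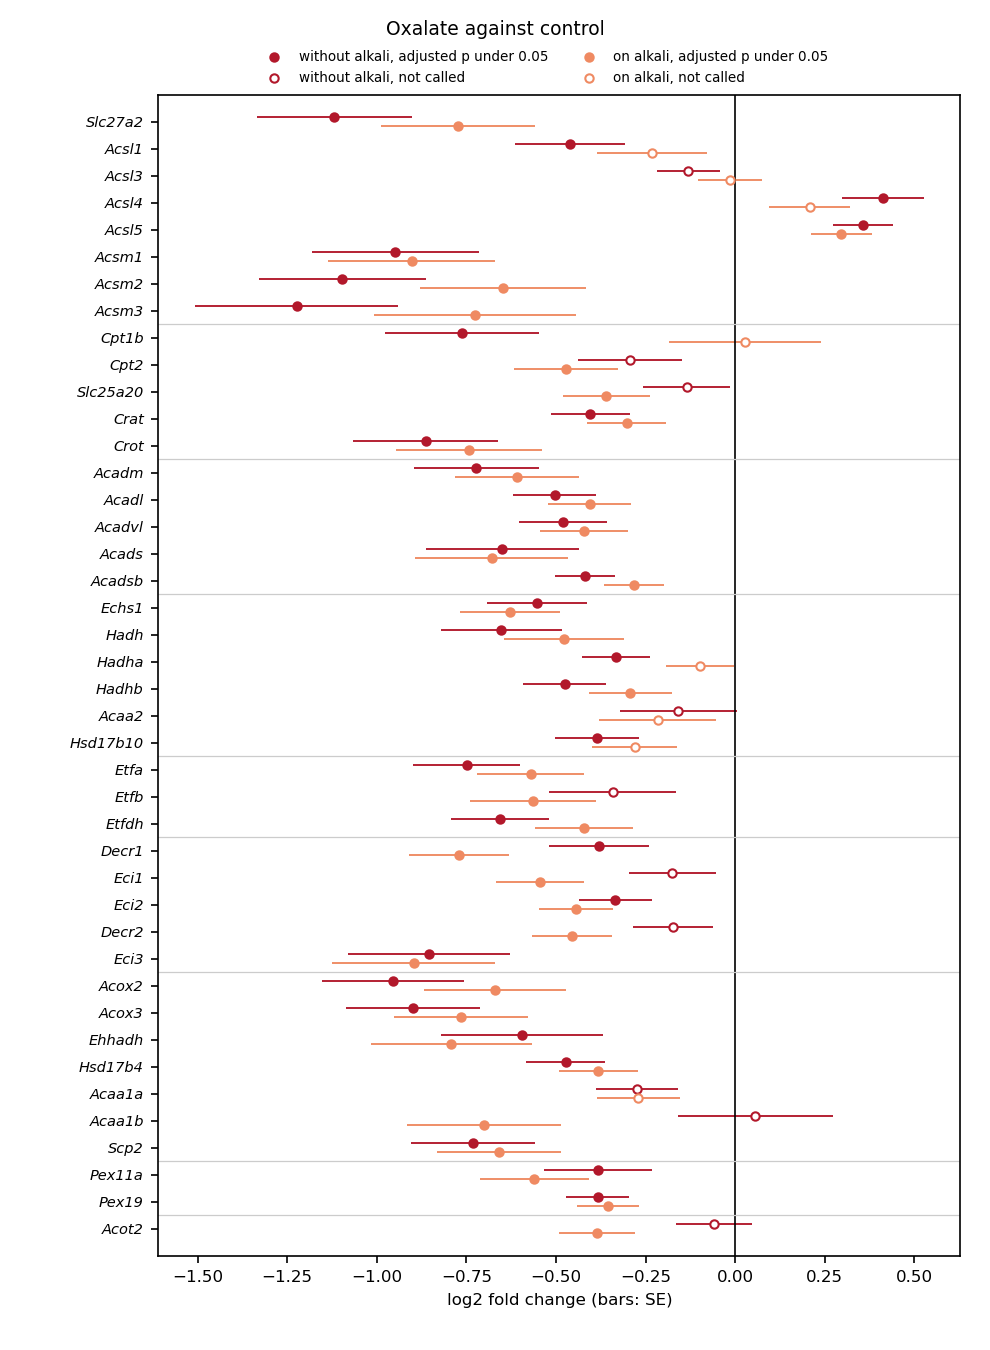
Log2 fold change of oxalate mice against controls for each of the 42 genes, without alkali and on alkali, with bars for the SE of the edgeR fit. Filled points passed an adjusted p of 0.05; most points lie left of 0 in both settings, and Acsl4 and Acsl5 lie to the right.

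Of the 6 genes for hydration, the second dehydrogenation and thiolysis, 5 fell without alkali and 3 on alkali. Hadhb (chr5:30155248-30184593, plus strand) encodes the thiolase subunit of the trifunctional protein. Hadhb stood at 128, 146, 122, 156 and 123 CPM in untreated controls and 98.9, 79.5, 114, 114 and 79.2 CPM in untreated oxalate mice. With alkali, Hadhb read 129.6, 121, 131, 140.0 and 122 CPM in controls and 118, 104, 88.2, 94.2 and 121 CPM in oxalate mice. The untreated groups did not overlap, and on alkali 1 oxalate library, 33, lay just above the lowest control. The log2 fold change was -0.48 ± 0.12 without alkali (edgeR adjusted p = 0.00224) and -0.29 ± 0.12 on alkali (edgeR adjusted p = 0.0496). The call on alkali was lost without any 1 of libraries 1, 3, 4, 5, 7, 8, 9, 13, 19, 27, 30, 35 and 37 (log2 -0.32 to -0.24, edgeR adjusted p = 0.05 to 0.131). Of these, libraries 3, 9, 13, 19 and 35 are in neither group compared, and without any 1 of them the log2 fold change stayed at -0.29. Echs1 (chr7:140105710-140116476, minus strand), the short-chain enoyl-CoA hydratase, was measured at 252, 264, 235, 249 and 276 CPM in untreated controls and 185, 155, 209.9, 203 and 118 CPM in untreated oxalate mice. On alkali Echs1 came to 257, 239, 238, 224 and 236 CPM in controls and 206, 159.8, 124, 129.9 and 153 CPM in oxalate mice. No oxalate library reached a control of the same treatment, and oxalate libraries 40, 8 and 30 were the lowest. It fell by 0.55 ± 0.14 log2 without alkali (edgeR adjusted p = 0.00301) and by 0.63 ± 0.14 on alkali (edgeR adjusted p = 0.00265). Hadh and Hadha fell without alkali (-0.65 and -0.33), as did Hsd17b10 (-0.39). Hadh fell on alkali too (-0.48), a call lost without any 1 of libraries 1, 5, 7, 8, 27, 33 and 37 (log2 -0.48 to -0.38, edgeR adjusted p = 0.051 to 0.0874). Hsd17b10 was not called on alkali with all libraries and edgeR (-0.28, edgeR adjusted p = 0.0627). It was called lower once any 1 of libraries 2, 4, 30, 32 and 40 (log2 -0.33 to -0.31, edgeR adjusted p = 0.0155 to 0.049) was left out. Of these, libraries 32 and 40 are in neither group compared. Hsd17b10 was also called lower on alkali with DESeq2 (-0.29, DESeq2 adjusted p = 0.042) and with only the 2 groups compared (-0.28, edgeR adjusted p = 0.0231). Acaa2, the mitochondrial thiolase of medium chains, gave -0.16 ± 0.16 without alkali (edgeR adjusted p = 0.44) and was not called in any comparison.

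Electron transfer flavoprotein passes the electrons of the acyl-CoA dehydrogenases to the respiratory chain through its oxidoreductase, and 2 of these 3 genes fell without alkali and 3 on alkali. Etfa (chr9:55454508-55512243, minus strand), its alpha subunit, stood at 402, 477, 384, 393 and 452 CPM in untreated controls and 235, 217, 326, 292 and 185 CPM in untreated oxalate mice. With alkali, Etfa read 409, 356, 408, 414 and 398 CPM in controls and 375, 246, 211, 253 and 251 CPM in oxalate mice. The untreated groups were apart, and on alkali library 2 of the oxalate mice passed the lowest control, library 4. Etfa fell to 0.595 times the control level without alkali (log2 -0.75 ± 0.15, edgeR adjusted p = 0.00047) and by 0.57 ± 0.15 log2 on alkali (edgeR adjusted p = 0.00706). Etfdh (chr3:79603788-79629500, minus strand), the oxidoreductase, was measured at 239, 281, 253, 236 and 237 CPM in untreated controls and 169, 150.3, 195, 172 and 105 CPM in untreated oxalate mice. On alkali Etfdh came to 258, 239.8, 259, 264 and 246 CPM in controls and 238, 163, 189.5, 208 and 148 CPM in oxalate mice. In neither setting did the groups overlap, though oxalate library 2 lay within 3 CPM of the lowest control on alkali. The log2 fold change was -0.66 ± 0.14 without alkali (edgeR adjusted p = 0.000686) and -0.42 ± 0.14 on alkali (edgeR adjusted p = 0.0202). The call on alkali was lost without either of libraries 5 and 33 (log2 -0.38 to -0.34, edgeR adjusted p = 0.0543 to 0.0625). Etfb, the beta subunit, gave -0.34 ± 0.18 without alkali (edgeR adjusted p = 0.112) and -0.56 on alkali (edgeR adjusted p = 0.0174). Its call on alkali was lost without library 33 (log2 -0.50, edgeR adjusted p = 0.0506), and without alkali it was called once library 32 (log2 -0.50, edgeR adjusted p = 0.0234) was left out. Of its transcript, 43.8% of all windows of 50 bases also occur in Gm45233, which overlaps it on the same strand, so its count is uncertain.

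The sequence before the start of these genes was searched for elements of 2 known regulators of the path, PPARalpha and the estrogen-related receptors, because so many of the 42 genes moved together. RefSeq promoter windows, of 250 bases before to 50 after the start in GRCm38.p6, were at hand for 36 of the 42 genes. The PPAR element, DR1, was searched as AGGTCANAGGTCA with at most 2 mismatches on either strand, and 4 of 36 genes held it (11.1%; Acox2, Echs1, Etfa and Slc25a20), against 4.4% of 27025 genes. The ERR element TCAAGGTCA was in 0 of 36, against 0.466% of genes. The half-site AGGTCA was in 6 of 36 (16.7%), against 18.1%, and in Echs1 it is part of the DR1 match. Below are the stretches before the start of the 2 genes with a match upstream of it, both of which fell; Etfa is chr9:55512244-55512343 on the minus strand (bases -100 to -1 from the RefSeq start) and Echs1 is chr7:140116477-140116521 on the minus strand (bases -100 to -56). Capitals mark the DR1 match, which in Etfa is on the opposite strand. A match is a description of letters, and binding was not measured here.
Etfa: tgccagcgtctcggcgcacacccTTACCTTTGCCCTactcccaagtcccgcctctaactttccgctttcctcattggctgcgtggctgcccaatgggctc
Echs1: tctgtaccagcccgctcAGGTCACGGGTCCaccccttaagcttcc

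Isomerases and reductases handle the double bonds of unsaturated fatty acids; 3 of these 5 genes fell without alkali and 5 of 5 on alkali. Eci3 (chr13:34946614-34963810, minus strand), a peroxisomal isomerase found in the kidney, stood at 304, 329, 302, 274 and 354 CPM in untreated controls and 169, 145, 232, 216 and 103 CPM in untreated oxalate mice. With alkali, Eci3 read 299.7, 220.0, 279.9, 224 and 273 CPM in controls and 238, 111, 99.98, 153 and 94.5 CPM in oxalate mice. The untreated groups did not overlap, and on alkali library 2 of the oxalate mice lay among the controls while the other 4 were far below. It fell by 0.85 ± 0.23 log2 without alkali (edgeR adjusted p = 0.00411) and by 0.90 ± 0.23 on alkali (edgeR adjusted p = 0.00582). Eci2 (chr13:34977748-35027096, minus strand), a related gene nearby, was measured at 148, 147, 131, 118 and 125 CPM in untreated controls and 113, 104, 114, 115 and 84.4 CPM in untreated oxalate mice. On alkali Eci2 came to 133, 120.4, 152, 155 and 143 CPM in controls and 123, 104, 94.7, 103 and 91.95 CPM in oxalate mice. The untreated groups were separated by under 4 CPM, and on alkali oxalate library 2 passed the lowest control. Eci2 changed by -0.34 ± 0.10 without alkali (edgeR adjusted p = 0.0103) and -0.44 ± 0.10 on alkali (edgeR adjusted p = 0.00323). Of the windows of 50 bases in Eci3, 8.7% also occur in Eci2, so reads could be split between them.

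In oxalate mice alkali gave values below 0 for all 5 genes of this group (median -0.31), none of them past the threshold. Decr1, the mitochondrial dienoyl-CoA reductase, had -0.44 ± 0.14 (edgeR adjusted p = 0.0766; DESeq2 adjusted p = 0.0245), and Eci1, the mitochondrial isomerase, had -0.35 ± 0.12 (edgeR adjusted p = 0.103). Without oxalate library 40, the lowest of the untreated group, both were called lower with alkali: Decr1 at -0.55 (edgeR adjusted p = 0.0188) and Eci1 at -0.46 (edgeR adjusted p = 0.0233). Against controls, Decr1 gave -0.38 without alkali (edgeR adjusted p = 0.0297) and -0.77 on alkali (edgeR adjusted p = 0.000585), where the groups did not overlap. The call of Decr1 without alkali was lost without any 1 of libraries 3, 12, 13 and 19 (log2 -0.37 to -0.34, edgeR adjusted p = 0.0528 to 0.0713). Eci1 gave -0.17 and -0.54 (edgeR adjusted p = 0.00274), and Decr2, the peroxisomal reductase, -0.17 and -0.46 (edgeR adjusted p = 0.00506).

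In the peroxisomal path, 5 of 7 genes fell without alkali (median -0.595) and 6 of 7 on alkali (median -0.67). Acox2 (chr14:8225511-8259353, minus strand) oxidises bile acid precursors and branched chains. Acox2 stood at 131, 143, 130.5, 137 and 148 CPM in untreated controls and 67.2, 71.00, 90.99, 79.8 and 46.6 CPM in untreated oxalate mice. With alkali, Acox2 read 159, 121, 129, 121 and 134 CPM in controls and 135, 55.1, 72.1, 98.1 and 57.2 CPM in oxalate mice. Without alkali no oxalate library came near a control, and on alkali library 2 of the oxalate mice exceeded 4 of the 5 controls. Acox2 was 0.516 times the control level without alkali (log2 -0.95 ± 0.20, edgeR adjusted p = 0.000686) and fell by 0.67 ± 0.20 log2 on alkali (edgeR adjusted p = 0.013). Acox3 (chr5:35583040-35615352, plus strand), an oxidase of branched chains, was measured at 456, 414, 365, 444 and 447 CPM in untreated controls and 231, 221, 298, 238 and 153 CPM in untreated oxalate mice. On alkali Acox3 came to 386, 344, 345, 301 and 364 CPM in controls and 313, 173, 168, 239 and 129.9 CPM in oxalate mice. The untreated groups did not overlap, and on alkali oxalate library 2 passed the lowest control. Acox3 changed by -0.90 ± 0.19 without alkali (edgeR adjusted p = 0.000692) and -0.77 ± 0.19 on alkali (edgeR adjusted p = 0.00481). Ehhadh and Hsd17b4, the peroxisomal multifunctional enzymes, and Scp2, a thiolase and sterol carrier, fell by 0.59, 0.47 and 0.73 log2 without alkali and by 0.79, 0.38 and 0.66 on alkali. The call of Ehhadh without alkali was lost without any 1 of libraries 9, 13, 19 and 40 (log2 -0.57 to -0.46, edgeR adjusted p = 0.0521 to 0.0685).

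The remaining pair, Acaa1a and Acaa1b, are closely related peroxisomal thiolases that lie near each other on chromosome 9, and 30.5% of the 50-base windows of Acaa1b also occur in Acaa1a, so their counts are uncertain. Acaa1b (chr9:119148023-119157093, minus strand) is given in full after its values were seen, since it had the smallest adjusted p for alkali in oxalate mice. Acaa1b stood at 231, 217, 273, 185 and 205 CPM in untreated controls and 257, 237, 245, 312 and 105 CPM in untreated oxalate mice. With alkali, Acaa1b read 216, 196, 256, 248 and 202 CPM in controls and 176, 136, 135, 159 and 82.3 CPM in oxalate mice. Of the untreated oxalate libraries, 4 lay within or above the control range and library 40 far below it, while on alkali every oxalate library lay below every control. Acaa1b gave 0.06 ± 0.21 without alkali (edgeR adjusted p = 0.844) and fell by 0.70 ± 0.22 on alkali (edgeR adjusted p = 0.016). The direct comparison, alkali against untreated in oxalate mice, was -0.75 ± 0.22 (95% interval -1.20 to -0.30, edgeR adjusted p = 0.0551). That value passed with DESeq2 (adjusted p = 0.0115), without oxalate library 40 (-0.92, edgeR adjusted p = 0.0082) and without library 2 of the oxalate mice on alkali (-0.85, edgeR adjusted p = 0.0443). It passed in 5 of 27 alternative settings, which also include relative log expression and total-count scaling, and in none of the rest. Over the 27 settings the value ran from -0.92 to -0.575. Acaa1a gave -0.27 ± 0.12 without alkali (edgeR adjusted p = 0.0545) and -0.27 ± 0.12 on alkali (edgeR adjusted p = 0.0655), and with alkali in oxalate mice its 95% interval was -0.23 to 0.25. It was called lower without alkali once any 1 of libraries 13, 32 and 33 (log2 -0.41 to -0.27, edgeR adjusted p = 0.00484 to 0.0417) was left out, and on alkali once either of libraries 32 and 40 (log2 -0.30, edgeR adjusted p = 0.0093 to 0.0284) was. Library 33 is in neither group compared without alkali, and libraries 32 and 40 are in neither group compared on alkali.

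The stretches before the 2 starts are shown because the pair share transcript sequence but differ in their values. Acaa1a is chr9:119341194-119341293 on the plus strand and Acaa1b is chr9:119157094-119157193 on the minus strand, both bases -100 to -1 from the RefSeq start in GRCm38.p6. The GENCODE M21 annotation places Acaa1a at chr9:119339676-119350299, so its stretch lies inside the gene by that annotation. The Acaa1b stretch lies just outside its gene, so the 2 are not alike in position. The 2 stretches are identical at 32 of 100 positions when aligned by distance from the start without gaps, and neither window held a DR1, ERR or half-site match, so no capitals are used.
Acaa1a: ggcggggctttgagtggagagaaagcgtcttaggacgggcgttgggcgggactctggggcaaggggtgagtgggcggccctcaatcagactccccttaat
Acaa1b: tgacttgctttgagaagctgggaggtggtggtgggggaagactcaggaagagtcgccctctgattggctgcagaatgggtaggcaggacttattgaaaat

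Of the 2 peroxisome biogenesis genes, both fell in both settings. Pex19 (chr1:172126755-172136493, plus strand), a chaperone of peroxisomal membrane proteins, stood at 128, 139, 125, 132 and 138 CPM in untreated controls and 103, 94.96, 113, 112 and 83.5 CPM in untreated oxalate mice. With alkali, Pex19 read 131, 123, 128, 137 and 129 CPM in controls and 122, 99.7, 89.8, 97.3 and 98.2 CPM in oxalate mice. The groups did not overlap in either setting. It fell by 0.38 ± 0.09 log2 without alkali (edgeR adjusted p = 0.00131) and by 0.35 ± 0.09 on alkali (edgeR adjusted p = 0.00503). Pex11a (chr7:79735957-79743131, minus strand), which drives peroxisome elongation and division, was measured at 91.7, 77.8, 78.3, 70.02 and 68.8 CPM in untreated controls and 63.8, 64.01, 64.9, 66.4 and 37.7 CPM in untreated oxalate mice. On alkali Pex11a came to 85.4, 71.8, 83.6, 98.7 and 87.5 CPM in controls and 73.9, 56.9, 49.1, 66.6 and 43.1 CPM in oxalate mice. The untreated groups were apart by under 3 CPM with library 40 well below the rest, and on alkali oxalate library 2 lay above the lowest control. Pex11a changed by -0.38 ± 0.15 without alkali (edgeR adjusted p = 0.0414) and by -0.56 ± 0.15 on alkali (edgeR adjusted p = 0.00823). The first call was lost without any 1 of libraries 9, 13, 19 and 40 (log2 -0.38 to -0.30, edgeR adjusted p = 0.0654 to 0.111).

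Acot2 (chr12:83987861-83993873, plus strand), the mitochondrial thioesterase that frees fatty acids from coenzyme A, was the single gene of acyl-CoA hydrolysis. Acot2 stood at 22.5, 20.7, 18.8, 19.3 and 21.8 CPM in untreated controls and 23.4, 18.4, 18.5, 21.4 and 17.4 CPM in untreated oxalate mice. With alkali, Acot2 read 26.1, 25.2, 27.6, 33.2 and 25.7 CPM in controls and 23.4, 23.2, 16.8, 19.3 and 22.9 CPM in oxalate mice. The untreated groups overlapped, and on alkali all 5 controls lay above all 5 oxalate libraries and above all untreated controls. Acot2 gave -0.06 ± 0.11 without alkali (edgeR adjusted p = 0.669) and fell by 0.39 ± 0.11 on alkali (edgeR adjusted p = 0.0092). In control mice the log2 fold change of alkali against no treatment was 0.42 ± 0.11 (unadjusted p = 0.000843, edgeR adjusted p = 1). Windows of 50 bases shared with Acot1 and Acot4 make up 27.6% of its transcript, so its count is uncertain.

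In control mice, alkali gave 0 lower and 0 higher calls among the 42 genes, and among all genes 0.00% fell and 0.00% rose (edgeR). At an unadjusted p under 0.05 there were 2 of the 42, Acsl3 lower and Acot2 higher, and 389 of all genes; DESeq2 and limma-voom called 0 of the 42, and DESeq2 called 3 of all genes. All 42 intervals lay within 1 log2 unit on either side of 0. The test of whether alkali acted differently in oxalate and control mice called 0 of the 42 in either direction, with 0.00% of all genes lower and 0.00% higher (edgeR). Of the 42, 4 had an unadjusted p under 0.05, and DESeq2 and limma-voom called 0. DESeq2 called 14 lower and 12 higher over all genes.

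**Figure D5:**
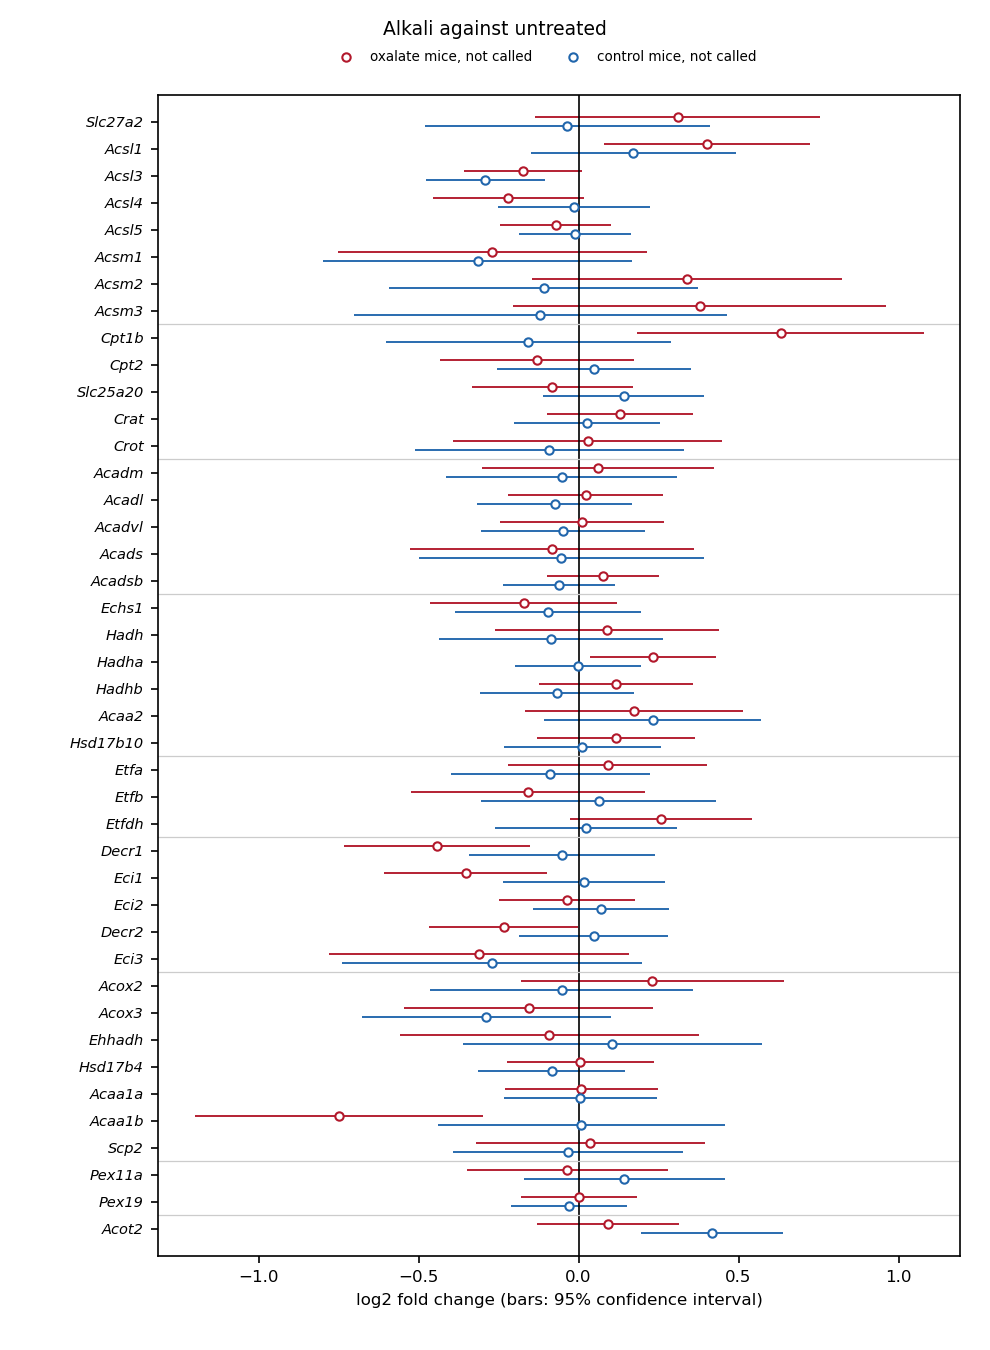
Log2 fold change of alkali against no treatment for each of the 42 genes, in oxalate mice and in control mice. Bars are confidence intervals of the edgeR fit, not the SE. No gene passed an adjusted p of 0.05; Cpt1b and Acaa1b lie farthest from 0, in opposite directions, in oxalate mice.

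Levels were compared between genes per length, as RPKM, the scaled CPM per kilobase of exon. In untreated controls the highest mean was that of Slc27a2, at 1354 ± 186 (SD, n = 5), followed by Acsm2 at 902 ± 101 and Etfb at 360.0 ± 27.3. The lowest was Acsl3 at 6.10 ± 0.667, followed by Acsl4 at 8.37 ± 1.07 and Acot2 at 9.40 ± 0.715. Slc27a2 and Acsm2 remained the 2 highest in untreated oxalate mice, at 623 ± 176 and 422 ± 143. The length counts all annotated exons of a gene together, 3754 bases for Slc27a2 and 7424 for Acsm2. In mean CPM of untreated controls the order of these 2 was reversed, at 5080.9 for Slc27a2 and 6698.5 for Acsm2.

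Other genes of the pathway, on lists that leave out the 42, were counted in the same way. Over all genes, 23.1% fell and 26.4% rose without alkali, and 17.1% fell and 23.4% rose on alkali. Alkali in oxalate mice lowered 2.33% and raised 1.76% of all genes. Of 39 other fatty acid oxidation genes, 25 fell and 5 rose without alkali (median -0.56), and 23 fell and 4 rose on alkali (median -0.45). The 4 with the smallest p without alkali all fell: Oxct1, which starts the use of ketone bodies (-0.90 ± 0.15, edgeR adjusted p = 9.45e-05), Slc25a17, a peroxisomal cofactor carrier (-0.45), Bdh1, which makes and oxidises hydroxybutyrate (-1.09), and Acad10 (-1.01). Cpt1a, the rate-setting carnitine transferase of the kidney and liver, fell by 0.49 ± 0.12 log2 (edgeR adjusted p = 0.00197). Among the 5 that rose were Cpt1c, Acsf2 and Fabp1, named after their values were seen. Fabp1, a fatty acid binding protein, rose by 2.18 ± 0.64 log2 (edgeR adjusted p = 0.00792). Alkali in oxalate mice raised 2 of the 39 and lowered 0: Acsl6, a long-chain synthetase (1.41 ± 0.27, edgeR adjusted p = 0.0079), and Oxct1 (0.56 ± 0.15, edgeR adjusted p = 0.043).

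Of 14 other peroxisome biogenesis genes, 12 fell and 0 rose without alkali (median -0.40) and 8 fell on alkali (median -0.32). Pex3, which anchors Pex19 at the membrane (-0.59 ± 0.09, edgeR adjusted p = 4.64e-05), and Pex7 and Pex5, the import receptors (-0.60 and -0.52), were among those with the smallest p. Of 12 genes of transcriptional control, 8 fell and 0 rose without alkali (median -0.52) and 4 fell on alkali (median -0.39). Ppara, the nuclear receptor that switches on fatty acid oxidation, stood at 44.5 ± 5.67 CPM (SD, n = 5) in untreated controls and 23.4 ± 8.49 in untreated oxalate mice (-0.93 ± 0.26 log2, edgeR adjusted p = 0.00645). Ppargc1a, its coactivator and a driver of mitochondrial biogenesis, fell by 0.48 ± 0.11 log2 (edgeR adjusted p = 0.00125), as did Esrrg (-0.53), Tfam (-0.38) and Rxra (-0.51).

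Of 18 genes of fatty acid synthesis and lipid droplets, 2 fell and 3 rose without alkali, against 23.1% and 26.4% of all genes. On alkali 3 fell and 2 rose, against 17.1% and 23.4%. Alkali in oxalate mice lowered 2 of the 18 and raised 0. Without alkali, the genes called were the following. Plin3 and Scd2, a droplet coat protein and a desaturase, rose (0.38 and 0.58), and Dgat2 and Pnpla2, which make and break down triglyceride, fell (-0.94 and -0.54). Plin2, the main droplet coat protein of many tissues, is the third that rose, named after its values were seen. Plin2 lay between 94.9 and 138 CPM in untreated controls and between 114 and 152 CPM in untreated oxalate mice. With alkali, Plin2 lay between 92.5 and 126 CPM in controls and between 93.2 and 121 CPM in oxalate mice. The untreated groups overlapped through control library 26, and the oxalate groups overlapped through library 33 on alkali; both are among the 6 libraries with Adipoq above 1 CPM. Plin2 rose by 0.32 ± 0.11 log2 in untreated oxalate mice (edgeR adjusted p = 0.0227) and fell with alkali in oxalate mice by 0.41 ± 0.11 (edgeR adjusted p = 0.0445).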

How the data were processed

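Poly(A) RNA was prepared with a stranded TruSeq kit and sequenced as 20 mouse libraries, per the labels. The authors deposited raw whole-number counts per gene. They used bcl2fastq 2.19, Trimmomatic, STAR 2.7.1, featureCounts and edgeR, per the submitters' processing notes, which name a human genome build although the identifiers are mouse genes. The treatment of strand and of reads that match several genes is not given in the sources used here.

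Symbols, positions and exon lengths of GENCODE M21 (GRCm38) were joined to 25587 of 25700 identifiers; the other 113 held at most 0.0541% of the counts of a library. Groups came from titles and treatment labels. In R 4.3.3, filterByExpr of edgeR 4.0.16 (minimum count 10) kept 15430 genes and removed 10270. TMM scaling, 1 model with 4 group means over all 20 libraries and robust quasi-likelihood tests gave 5 comparisons; p-values were adjusted by Benjamini-Hochberg over all tested genes, with a threshold of 0.05. The SE is the log2 fold change over the square root of F. The biological coefficient of variation common to all genes was 0.200.

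Every one of the 42 genes could be named. Values in every library were given for the 2 genes of each role with the smallest p without alkali, for genes called against the majority, and for Cpt1b and Acaa1b, chosen after their values were seen. Of each pathway list up to 4 genes with the smallest p were named, beside Cpt1a, Ppara and Ppargc1a; some genes of these lists are not reported here by name. The 42 genes and all lists were chosen with earlier results of these data known. Alternatives were relative log expression (RLE) and total-count scaling, no filter, DESeq2 1.42.0, limma-voom (limma 3.58.1), only the 2 groups compared, leaving out the 6 libraries with Adipoq above 1 CPM, and leaving out each library in turn.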

Additional observations from a re-analysis of the deposited data

Results flagged for a closer look

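In 168 groups of 5 libraries (42 genes in 4 groups), 11 held a library whose gap to its nearest neighbour, as a share of the range of the group, exceeded Dixon's critical value for 5 samples; chance gives about 1 in 20 such groups. In untreated controls, library 26 was high in Crat at 211.6 CPM, with the others between 177.5 and 185.9. In controls on alkali, library 4 was high in Acsl3 at 23.82 CPM and low in Hadh at 546.3, Hsd17b10 at 91.77 and Etfa at 355.8. In untreated oxalate mice, library 40 was low in Pex11a at 37.73 CPM, with the others between 63.77 and 66.41. In oxalate mice on alkali, library 33 was high in Cpt1b at 50.72 CPM and low in Acaa1a at 80.78. Library 2 of the same group was high in Crot at 720.9 CPM, Etfa at 375.1 and Scp2 at 431.5, with the other 4 libraries between 280.4 and 344.8, between 211.1 and 253.2 and between 217.7 and 267.9.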

How the results depend on the processing

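Without alkali, the number of the 42 genes lower in oxalate mice was 31 with RLE scaling, no filter, DESeq2 and limma-voom, 28 with only the 2 groups and 29 without the 6 libraries with Adipoq above 1 CPM (1 higher then). Total-count scaling gave 16 lower and a median of -0.18, where all genes split into 1308 lower and 7498 higher against 3563 and 4067 with TMM. Leaving out each library in turn gave 27 to 33 lower, 2 higher and medians of -0.53 to -0.41. On alkali, total-count scaling gave 23 lower, 2 higher and a median of -0.26; without the 6 libraries 17 were lower and 0 higher, at a median of -0.53 against -0.46, while the genes lower among all tested went from 2633 to 956; leaving out 1 library gave 25 to 35 lower and 1 to 2 higher, 25 without library 33.

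For alkali in oxalate mice, 1 gene was lower with RLE scaling, 3 with total-count scaling and 2 with DESeq2, and 1 was higher without the 6 libraries. Leaving out 1 library gave 0 to 3 lower (3 without library 40, 1 without library 2), 0 to 1 higher (1 without library 26, Cpt1b) and medians of -0.070 to 0.081. The median, 0.01, lay at -0.001 with RLE scaling and with DESeq2 and at -0.037 with total-count scaling; it was -0.002 without library 12, -0.063 without library 40 and -0.070 without library 2. For alkali in controls it was 0.005 with total-count scaling. For the difference between the alkali effects, leaving out 1 library gave -0.057 to 0.141; the value was -0.016 with total-count scaling, -0.019 without library 40 and -0.057 without library 2. No gene called with all libraries and TMM scaling changed sign in another setting; Acaa1a without alkali, called lower in 8 settings, gave 0.008 with total-count scaling. The cause of these shifts was not tested.

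Leaving out 1 library ended a call in 56 of 840 fits of single genes on alkali and in 13 of 840 without it. Some of these libraries were in neither group compared. For Acsm3 and Hadhb on alkali, such fits kept the log2 fold change at -0.73 and -0.29. Their edgeR adjusted p moved from 0.045 and 0.0496 to between 0.0501 and 0.0574. The other settings ended a call in 28 fits on alkali and in 20 without it, not all of them named above. No paired analysis was possible because the groups share no replicate numbers. The chi-square per degree of freedom between 2 libraries of a group was at least 9.54, so the spread between libraries, and not counting error, sets the precision.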
